A study of Mus musculus with 6 samples.

Results

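Potassium channel genes were followed across 6 RNA-seq libraries of mouse brain tumours that model WNT medulloblastoma, a hindbrain cancer in which the WNT pathway is switched on. Members were the gene rows whose symbol is Kcn, then letters for the family, then a number, with at least 60 counts summed over the 6 libraries. Of 91 such rows, with 1 further row left out beforehand, 64 reached that minimum, out of 34591 gene rows in all. The labels name 3 libraries as a medulloblastoma control model and 3 as a medulloblastoma sh2-Ift88 model, named after a hairpin that targets Ift88, which takes part in the transport that builds primary cilia. The labels give no strain, age, driver alleles, vector or control hairpin, and do not say whether the libraries came from separate animals, so any p-value rests only on how far these 6 samples vary, and some of that may be technical.

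Potassium channels let potassium ions leave or enter cells and so set the resting membrane potential and end action potentials. Voltage-gated pores open on depolarisation, calcium- or sodium-activated pores open when those ions rise, inward rectifiers hold the resting potential, and tandem-pore (K2P) channels carry leak current. Accessory subunits bind to pores and change their gating or traffic. In the cerebellum many of these channels serve granule and Purkinje neurons, some belong to glia or vessels, and others occur in dividing cells.

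Gene counts summed to between 26802618 and 33772559 per library, and 62 of the 64 genes passed the filter on low counts used for testing (all but Kcne2 and Kcns3). Levels are CPM, counts per 1000000 of the TMM-scaled library size (a factor that ran from 1.05 to 1.24 in 5 libraries and was 0.598 in sh2-Ift88 3). A single count was worth 0.0247 to 0.0335 CPM in those 5 libraries and 0.0624 CPM in sh2-Ift88 3. The targeted Ift88 stood at 13.8, 19.7 and 13.7 CPM in control libraries, and libraries labelled sh2-Ift88 had 14.7, 16.0 and 14.4 CPM, so that the knock-down named by the labels was not seen at the RNA level (log2 fold change -0.06, SE 0.27). On treatment, the labels carry the same wording for all 6 samples, saying only that Ift88 was knocked down. The sample descriptions alone name 3 libraries as control and 3 as sh2-Ift88. The tumour genes Axin2, Lef1 and Wif1 were present in every library, at no less than 319, 68.8 and 1344 CPM. Olfactory receptor genes, which brain tissue keeps largely silent, were detected in 437, 497 and 340 of 1097 rows in control 2, sh2-Ift88 2 and sh2-Ift88 3 and in 21 to 31 rows in the other 3 libraries, but averaged no more than 0.0443 CPM per gene in any library.

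Snap25, which encodes a membrane protein of synaptic vesicle release and marks mature neurons, divided the libraries. It was at 0.545, 67.9 and 198.8 CPM in control 1, 2 and 3 and at 90.2, 44.2 and 1.06 CPM in sh2-Ift88 1, 2 and 3. Control 1 and sh2-Ift88 3, both under 5 CPM, are called Snap25-poor here, so each group holds 1 such library. As this division rests on a measured gene, what follows on it is a description with no test.

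Many of the channels were low wherever Snap25 was low, fewer were present throughout, and the rest followed neither pattern. At 1 CPM or more there were 21 and 26 channels in control 1 and sh2-Ift88 3, against 44 to 53 in the other 4 libraries. The median channel was at 0.363 and 0.499 CPM in the Snap25-poor libraries and at 2.28 to 3.22 CPM in the others. Of the 64 channels, 32 were lower in both Snap25-poor libraries than in each of the other 4, which is 50% against 12% of the 16768 genes tested. For 19 of the 32, or 29.7% of the channels, the higher Snap25-poor library was at least 4-fold below the lowest of the others, where 2.30% of tested genes did the same. Only 2 channels, Kcnmb4 and Kcnq1, were higher in both Snap25-poor libraries than in all others (8.79% of tested genes). Kept in all libraries, meaning at least 1 CPM in each and a mean difference within 1 on the log2 (CPM + 0.1) scale, were 11 channels, 17.2% against 69.8% of tested genes. The kept channels include Kcnab3, which is also among the 32, and Kcnq1, which is also among those higher in both. The other 22 channels, Kcnmb4 among them, were neither lower in both nor kept. Some, such as Kcnj8, Kcne3 and Kcnip2 with log2 differences of -0.12, 0.11 and -0.27, missed the kept rule only through its 1 CPM minimum. Others, such as Kcnh2 and Kcnmb4, missed it through the difference. The share of kept genes thus also depends on how high their levels are. In bulk tissue, fewer cells of a type and less RNA per cell cannot be told apart.

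**Figure D1:**
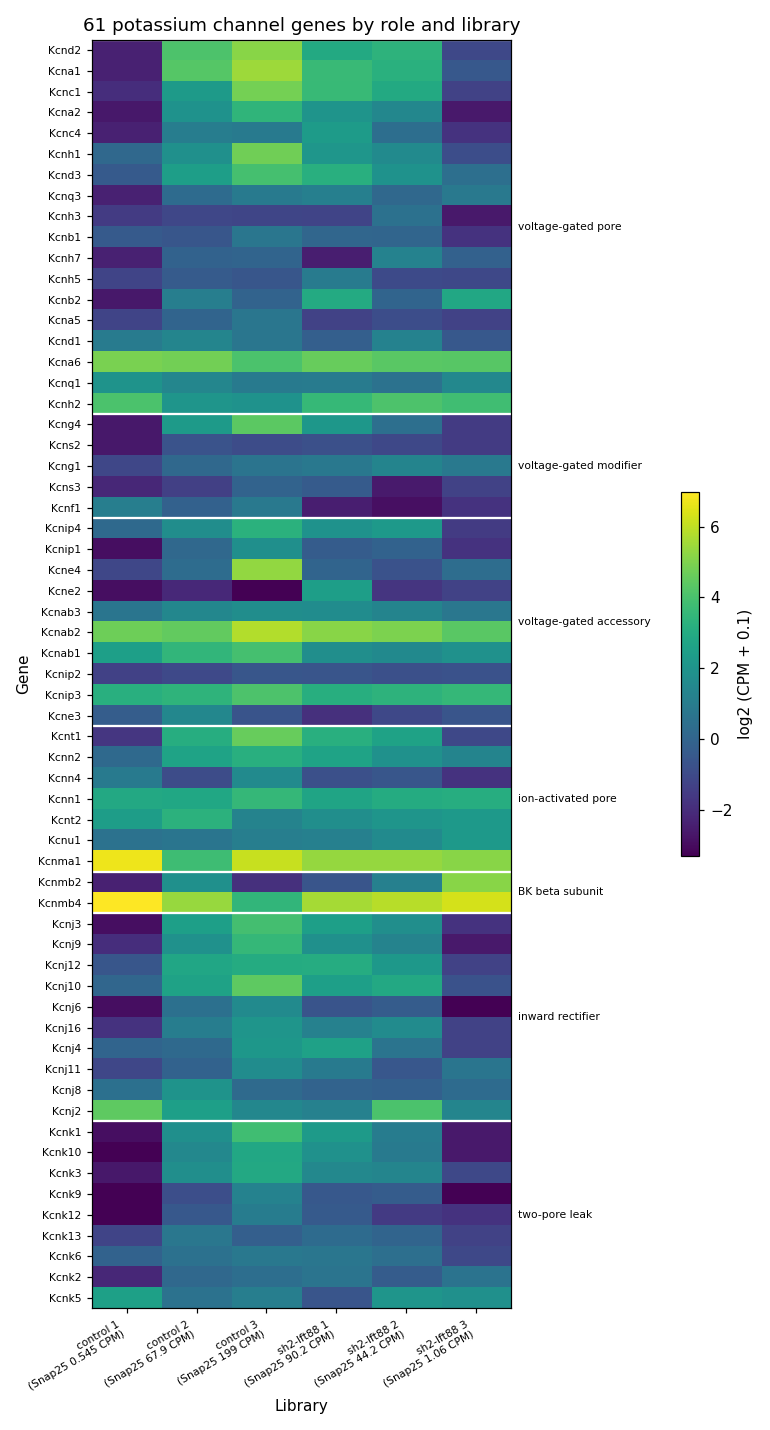
Level of 61 potassium channel genes (rows, grouped by role and ordered within a role by how far they lie below in the Snap25-poor libraries) in 6 libraries (columns), as log2 (CPM + 0.1) on the colour scale. Control 1 and sh2-Ift88 3, at 0.545 and 1.06 CPM of Snap25, share dark rows in most roles, while rows such as Kcna6, Kcnab2, Kcnma1 and Kcnmb4 stay bright in every library or nearly so.

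Marker genes of normal cerebellum differed along with the channels. Of 10 mature neuron markers, 9 were lower in both Snap25-poor libraries, among them Snap25 itself, which set the division. The exception was Stmn2, at 40.2 CPM in control 1 and 1.06 CPM in sh2-Ift88 3 against 5.74 to 61.3 CPM elsewhere. The summed level of all 10 was 57.0 and 17.7 CPM in the Snap25-poor libraries, and Stmn2 gave most of the 57.0 CPM. Elsewhere the summed level was 141 to 403 CPM, of which Snap25 alone gave 44.2 to 198.8 CPM. In the controls that sum ran from 57.0 to 403 CPM and in the libraries labelled sh2-Ift88 from 17.7 to 182 CPM. All 6 granule cell markers were lower there, summing to 4.87 and 3.62 CPM against 108 to 397 CPM, and Gabra6 had 0 counts in control 1. Of 8 oligodendrocyte markers 7 were lower, summing to 21.7 and 23.4 CPM against 64.0 to 255 CPM, with Olig1 at 0 counts in sh2-Ift88 3. The astrocyte list was mixed, with 4 of 7 lower, and its sums were 299 and 347 CPM against 486 to 726 CPM. Aqp4 was at 0.151 and 1.62 CPM in the Snap25-poor libraries against 46.6 to 132 CPM, while Gja1, at 259 and 273 CPM, and Aldh1l1, at 4.81 and 11.4 CPM, were kept, and S100b was at 5.27 and 27.96 CPM against 15.5 to 53.4 CPM. Of 6 Purkinje markers 5 were lower, with sums of 378 and 569 CPM against 654 to 1136 CPM. Itpr1 made up most of those sums, at 341 and 540 CPM in the Snap25-poor libraries, where Pcp2 was at 0.0303 and 0.187 CPM, Car8 at 0.212 and 0.811 CPM and Pvalb at 0.212 and 0.0624 CPM. Aldoc was at 36.4 and 12.1 CPM there against 41.5 to 187 CPM elsewhere. The exception was Calb1, at 0.151 CPM in control 1 and 16.1 CPM in sh2-Ift88 3 against 10.7 to 77.4 CPM elsewhere. Of the non-neural lists, 5 of 8 microglial, 2 of 6 endothelial, 1 of 6 mural, 0 of 5 choroid plexus and 0 of 3 blood markers were lower in both. None of 5 WNT tumour markers was, and their sum ran from 2077 to 3968 CPM over the 6 libraries. The part that these cell types play in the channel values was not tested.

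Among the voltage-gated pore subunits, 11 of 21 were lower in both Snap25-poor libraries and 7 of them by at least 4-fold. Kcnd2, the pore of an A-type current in neuronal dendrites, was at 0.0908, 16.9 and 35.7 CPM in controls and at 7.54, 10.1 and 0.374 CPM in sh2-Ift88. Kcna1, an axonal delayed rectifier, was at 0.0908, 19.1 and 44.1 CPM and at 12.5, 9.19 and 0.624 CPM. Kcna2, its usual partner in axons, was at 0.0605, 3.70 and 10.5 CPM and at 3.98, 2.62 and 0.0624 CPM. In each of these 3 genes control 3 was highest and the Snap25-poor libraries of both groups lay at 1 to 10 counts, below all others. Kcnc1, a fast-closing pore of rapidly firing neurons, was at 0.151, 4.81 and 28.2 CPM in controls and at 12.3, 7.51 and 0.312 CPM in sh2-Ift88. Its relative Kcnc4 and the A-type subunit Kcnd3 were also lower in both. Kcnd3 missed the 4-fold rule, which compares the closest libraries (1.25 against 3.76 CPM), with an average difference of 7.28-fold.

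Not every member of a voltage-gated family did so. Kcna6, a relative of Kcna1, was at 29.99, 27.7 and 16.8 CPM in controls and at 24.0, 20.3 and 19.8 CPM in sh2-Ift88, and its lowest library was the one richest in Snap25. The other kept pore was Kcnq1, between 1.38 and 3.81 CPM, whose counts are uncertain because an antisense RNA overlaps the gene and the strand setting of the counting is not given. Kcnh2, the ERG channel known from heart, was at 16.6, 4.09 and 3.68 CPM in controls and at 12, 17.2 and 13.9 CPM in sh2-Ift88. It thus stood high in both Snap25-poor libraries and in sh2-Ift88 1 and 2, and low in the Snap25-rich controls. Kcnh1, of the same EAG superfamily, went the other way, at 1.03 and 0.437 CPM in the Snap25-poor libraries and at 2.92 to 27.2 CPM elsewhere.

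Neighbouring genes could fall in different sets. RefSeq order gives 4 pairs of these channels with no other protein-coding gene between them. On one side of Kcna1 lies Kcna6, kept in all libraries, and on the other Kcna5, which is in neither set at 0.311 to 1.56 CPM. Kcnj9 and Kcnj10 are neighbours and both were at least 4-fold lower. Kcnj16 and Kcnj2 are neighbours of which only Kcnj16 was lower in both Snap25-poor libraries.

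Upstream sequence from RefSeq (GRCm38.p6, a later build than the mm9 named for the counts) was at hand for 44 of the 64 genes, in 65 windows of 250 bases before a start site. The windows below are shown because they set 2 voltage-gated pores with large differences (Kcnd2 and Kcnc1) beside the neighbours Kcnj16 and Kcnj2. For Kcnj16 the first of 4 listed windows is shown. All 4 printed windows are free of annotated exons. Capitals mark GGGCGGG, a motif bound by SP and KLF factors, on either strand.
Kcnd2, chr6:21215096-21215345, plus strand: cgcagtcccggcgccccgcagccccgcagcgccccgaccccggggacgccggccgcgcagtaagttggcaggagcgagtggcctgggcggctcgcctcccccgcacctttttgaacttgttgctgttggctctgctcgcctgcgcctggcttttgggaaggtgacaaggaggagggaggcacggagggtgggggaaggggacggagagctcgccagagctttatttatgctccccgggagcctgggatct
Kcnc1, chr7:46396218-46396467, plus strand: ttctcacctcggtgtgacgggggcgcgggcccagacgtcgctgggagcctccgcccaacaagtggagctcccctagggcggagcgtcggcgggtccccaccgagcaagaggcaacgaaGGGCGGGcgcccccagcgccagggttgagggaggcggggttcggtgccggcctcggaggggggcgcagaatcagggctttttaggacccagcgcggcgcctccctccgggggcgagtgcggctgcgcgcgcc
Kcnj16, chr11:110967783-110968032, plus strand: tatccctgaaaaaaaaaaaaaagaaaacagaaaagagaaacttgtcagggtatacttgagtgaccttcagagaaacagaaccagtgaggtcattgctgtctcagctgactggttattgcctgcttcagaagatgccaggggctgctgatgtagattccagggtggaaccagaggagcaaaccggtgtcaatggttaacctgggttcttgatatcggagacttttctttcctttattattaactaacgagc
Kcnj2, chr11:111065914-111066163, plus strand: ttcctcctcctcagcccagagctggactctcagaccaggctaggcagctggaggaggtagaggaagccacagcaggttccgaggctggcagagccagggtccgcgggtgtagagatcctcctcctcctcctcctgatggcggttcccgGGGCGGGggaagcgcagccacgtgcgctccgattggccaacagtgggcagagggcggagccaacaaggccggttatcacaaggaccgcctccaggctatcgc

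Median GC content differed little between the sets, at 60.4% in 13 genes lower by at least 4-fold and 61.4% in 8 kept genes. Over all 27025 genes with a window it was 52.0%. Medians of the observed-to-expected ratio of CpG (C followed by G) were 0.335, 0.460 and 0.378 in the same order. Motifs were searched on both strands in every window, and only the CAGCTG and GGGCGGG searches gave more than 3 genes in any of these sets. GGGCGGG was in 11.1% of the windows of genes lower by at least 4-fold, 33.3% of those of kept genes and 23.4% of all windows. CAGCTG, an E-box, was in 22.2%, 26.7% and 13%. GGACAGC, the right part of the site of the neuronal gene repressor REST, was in 11.1%, 6.67% and 5.28%, and its left part TTCAGCACC in 0, 0 and 0.301%. The cAMP response element TGACGTCA was in 0, 0 and 1.55%, and the TCF/LEF site CTTTGAT in 5.56%, 0 and 3.21%. With 18 and 15 windows in the sets, these shares only describe the letters in them.

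Modifier and accessory subunits of voltage-gated channels were less uniform. The silent subunit Kcng4, which alters Kcnb channels, was at 0.0605, 4.77 and 21.0 CPM in controls and at 4.29, 1.27 and 0.250 CPM in sh2-Ift88, again lowest where Snap25 was poor. Of 10 accessory genes 3 were lower in both Snap25-poor libraries (Kcnip1, Kcnip4 and Kcnab3), none by 4-fold between the closest libraries, although Kcnip4 and Kcnip1 differed by 7.73-fold and 6.78-fold on average on the log2 (CPM + 0.1) scale. Kcnab2, a beta subunit of Kcna channels, was kept at 26.1, 22.4 and 55.3 CPM in controls and at 35.8, 30.9 and 20.2 CPM in sh2-Ift88. Kcnip3, a calcium-binding partner of Kcnd channels also called DREAM, was kept at 8.90, 10.5 and 17.2 CPM and at 8.72, 10.03 and 11.5 CPM. By TMM-scaled CPM Kcnab2 and Kcnip3 were therefore kept where the pores Kcna1, Kcna2 and Kcnd2 were at 1 to 10 counts. The pore Kcna6 was kept there too, at 29.99 CPM in control 1 and 19.8 CPM in sh2-Ift88 3. The log2 differences of Kcnab2 and Kcnip3, Snap25-poor minus other libraries, were -0.57 and -0.15. With library totals alone these were -1.06 and -0.63, so that Kcnab2 then missed the rule for kept genes.

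Among the accessory genes a pair was almost confined to 1 library each; both were noted after their values were seen. Kcne2, a small subunit known from the choroid plexus, had 1, 4 and 0 counts in the controls and 191, 6 and 5 in sh2-Ift88, that is 5.39 CPM in sh2-Ift88 1 and at most 0.312 CPM elsewhere; the 0 counts of control 3 allow up to 0.0741 CPM. The choroid plexus gene Ttr was at 1386 CPM in that same library and at 0.738 CPM or less in the others, and its part in the Kcne2 value was not tested. Kcne4 was at 39.8 CPM in control 3 and between 0.363 and 1.19 CPM in the other 5 libraries.

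Among the calcium- and sodium-activated pores and their relative Kcnu1, which alkaline pH opens, 4 of 7 were kept, where 69.8% of all tested genes were. Kcnma1, the pore of the large-conductance BK channel, was at 105, 13.6 and 70.1 CPM in controls and at 40.5, 41.3 and 36.0 CPM in sh2-Ift88. Its lowest level was in the Snap25-rich control 2 and its highest in Snap25-poor control 1. Kcnn1, a small-conductance channel, was at 7.45, 7.05 and 11.4 CPM and at 6.35, 8.09 and 8.43 CPM, a narrow range across all 6 libraries. The sodium-activated channels parted: Kcnt1 was at 0.212, 8.44 and 24.3 CPM and at 8.89, 6.04 and 0.374 CPM, at least 4-fold lower in both Snap25-poor libraries, while Kcnt2 was kept at 5.27, 9.68 and 2.32 CPM and at 3.33, 4.09 and 4.56 CPM.

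Neither BK beta subunit that reached the count minimum was lower in both Snap25-poor libraries. Kcnmb4, which slows BK channel opening in neurons, was at 127, 42.1 and 10.9 CPM in controls and at 48.4, 59.2 and 81.1 CPM in sh2-Ift88. Its order nearly reverses that of Snap25: highest in the Snap25-poor libraries, lowest in control 3. Per kilobase of annotated exon it had the highest mean level of the 64 genes, 18.5 CPM per kb, followed by Kcnab2 at 5.70, Kcna6 at 3.88, Kcnip3 at 3.14, Kcnma1 at 3.01 and Kcna1 at 2.98 CPM per kb. Kcnmb2, which inactivates BK channels, was at 0.0908, 3.48 and 0.173 CPM in controls and at 0.565, 2.15 and 35.3 CPM in sh2-Ift88. Thus 1 Snap25-poor library, sh2-Ift88 3, held most of its counts, and the other, control 1, was its lowest.

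Of the inward rectifiers 7 of 10 were lower in both Snap25-poor libraries, and of the K2P channels 7 of 9. Kcnj3, the GIRK1 subunit opened by G proteins, was at 0.0303, 5.49 and 15.1 CPM in controls and at 5.56, 3.29 and 0.187 CPM in sh2-Ift88. Kcnj9, its GIRK3 partner, was at 0.151, 3.61 and 11.6 CPM and at 3.47, 2.31 and 0.0624 CPM, and Kcnj6, the GIRK2 subunit, had 0 counts in sh2-Ift88 3, which allows up to 0.187 CPM. Kcnj12, a strong rectifier, was at 0.575, 6.76 and 8.10 CPM and at 8.36, 4.39 and 0.312 CPM. All GIRK subunits among the members thus shared the pattern of Snap25.

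Kcnj10, the glial channel that buffers potassium, was at 0.968, 6.01 and 21.4 CPM in controls and at 5.51, 7.41 and 0.499 CPM in sh2-Ift88. The low set is therefore not made of neuronal channels alone. In the same libraries 7 of 8 oligodendrocyte markers and 4 of 7 astrocyte markers were lower, and the part of these cells in the Kcnj10 value was not tested. Kcnj2, a rectifier of muscle, vessels and neurons, met the rule for kept genes at 21.3, 5.62 and 2.67 CPM and at 2.23, 16.8 and 2.496 CPM. Its values spread widely within both groups, with control 1 and sh2-Ift88 2 high.

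Among the leak channels Kcnk1 (TWIK-1) was at 0.0303, 3.38 and 14.1 CPM in controls and at 4.77, 1.91 and 0.0624 CPM in sh2-Ift88. Kcnk10 (TREK-2) was at 0, 2.73 and 7.21 CPM and at 3.64, 1.74 and 0.0624 CPM, and Kcnk3 (TASK-1) at 0.0605, 3.35 and 7.41 CPM and at 2.68, 2.48 and 0.374 CPM. All 3 were at 0 to 6 counts in the Snap25-poor libraries. Kcnk9 had 0 counts in both, which allows up to 0.0908 and 0.187 CPM, so with the lowest other library at 0.455 CPM its 4-fold difference is not resolved at this depth. The same holds for Kcnj6, whose lowest other library was at 0.536 CPM. Kcnk5 (TASK-2) was at 5.63, 1.40 and 2.03 CPM and at 0.565, 4.03 and 3.49 CPM. It was higher on average in the Snap25-poor libraries, but sh2-Ift88 2 lay above the Snap25-poor sh2-Ift88 3.

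**Figure D2:**
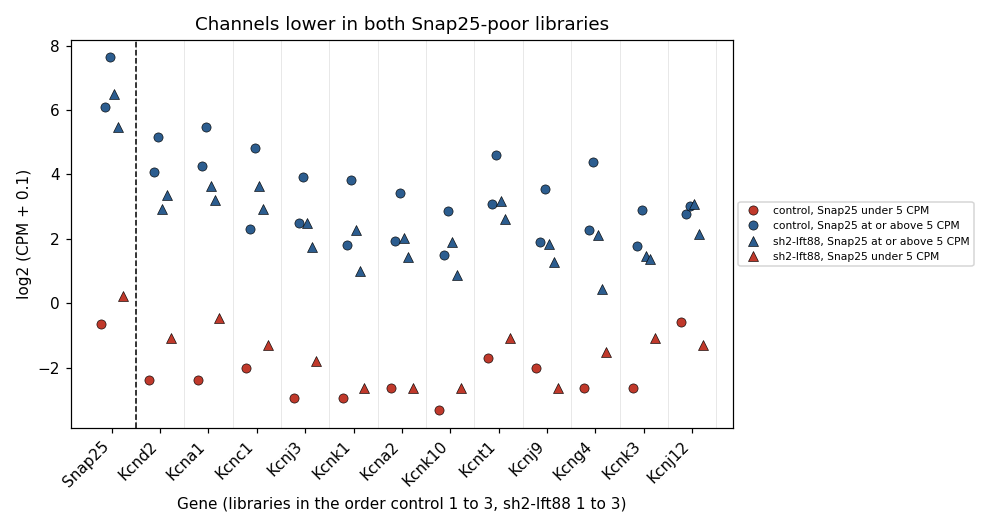
Level of Snap25 and of the 12 channels farthest below in the Snap25-poor libraries, as log2 (CPM + 0.1), with 1 point per library (circles control, triangles sh2-Ift88, red Snap25-poor). All 12 genes were picked among the channels lower in both Snap25-poor libraries, which places both red points below all 4 blue points. The red points are 1 from each group.

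**Figure D3:**
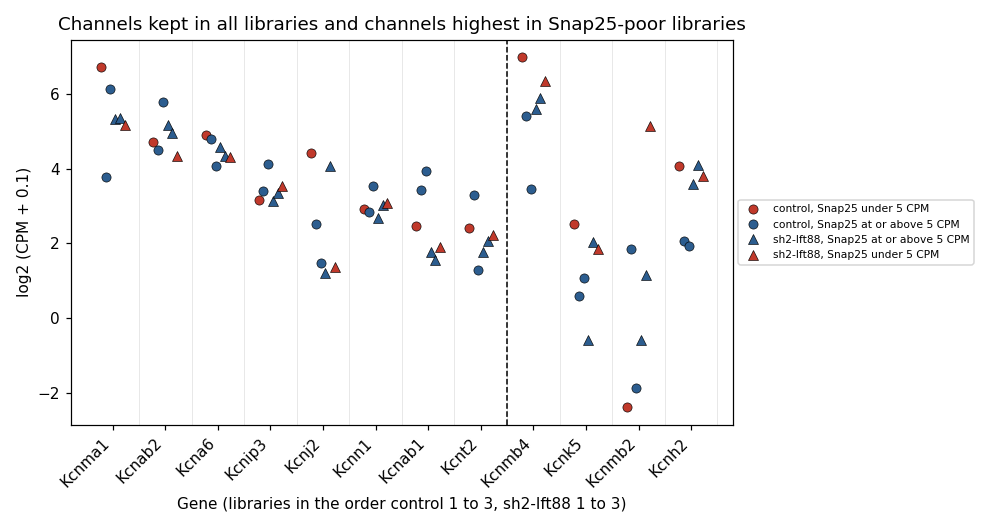
Level of the 8 kept channels with the highest mean CPM (left of the dashed line), as log2 (CPM + 0.1). There is 1 point per library, with the same symbols. On the right are the 4 channels of most positive mean log2 difference, Snap25-poor minus other libraries, among those averaging at least 1 CPM. Red points fall among the blue ones for Kcnip3 and Kcnn1. Of the 4 on the right, only Kcnmb4 has both red points above all blue ones.

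Control and sh2-Ift88 libraries did not differ in any potassium channel gene beyond the spread between libraries in edgeR's quasi-likelihood test. Of 62 channels tested, 0 were higher and 0 lower at an adjusted p of 0.05, as for 0% of the 16768 genes tested, with no adjusted p under 0.9995. Before adjustment 5 channels had a p under 0.05 in edgeR, among 541 such genes in all (3.23%). limma-voom called 0 channels, edgeR without a filter 0 channels (0.0194% of genes) and DESeq2 1 channel, Kcnf1 (0.334% of genes). Every sh2-Ift88 library lay above every control for 4 channels (4.68% of genes), 1 of them the untested Kcne2, and below for 2 (3.71% of genes).

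By direction alone, 46 of the 62 channels were lower in sh2-Ift88 and 16 higher, with a median log2 fold change of -0.49 against -0.01 over all genes tested. That median rests on control 3, in which 36 of the 64 channels had their highest level (23.0% of tested genes did). Without control 3 the median was 0.19. The 4 libraries that are not Snap25-poor gave -0.61, with control 3 among them.

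Kcnf1, a silent subunit that alters Kcnb channels, had the smallest p. Its counts were 67, 25 and 69 in the controls and 3, 1 and 3 in sh2-Ift88. Scaled to CPM, controls averaged 1.51 ± 0.630 and sh2-Ift88 libraries 0.102 ± 0.0783 (SD, n = 3 each), on the log2 scale a change of -3.96 (SE 0.78; edgeR adjusted p 0.9995). The groups did not overlap, and neither did those of Kcnab1, at 5.48, 10.8 and 15.3 CPM in controls and 3.33, 2.85 and 3.62 CPM in sh2-Ift88. Kcnab1, a beta subunit of Kcna channels, had a log2 fold change of -1.68 (SE 0.47), which likewise did not pass. DESeq2 gave Kcnf1 an adjusted p of 0.0222, and over 14 alternatives its adjusted p ran from there to 1.

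The other 3 genes on the lower side were Kcnn4, Kcne4 and Kcne3, all with overlapping groups. Kcnn4, the intermediate-conductance channel of blood and immune cells, was at 1.79, 0.422 and 2.96 CPM in controls and at 0.480, 0.570 and 0.187 CPM in sh2-Ift88. Kcne4, described above, had a log2 fold change of -4.002 (SE 1.65), and 0.19 without control 3. Kcne3, an accessory subunit of epithelia, was at 0.726, 2.63 and 0.543 CPM and at 0.169, 0.369 and 0.562 CPM.

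On the higher side Kcnb2, Kcnu1, Kcnmb2 and Kcng1 did not pass the test either. Kcnu1, a pore known from sperm, was at 1.39, 1.53 and 2.0 CPM and at 2.15, 2.99 and 4.68 CPM, and Kcng1, a silent subunit, at 0.363, 1.01 and 1.46 CPM and at 1.67, 2.42 and 1.69 CPM. In both genes the groups did not overlap, by a narrow margin. Kcnb2, a delayed rectifier, overlapped at 0.0605, 2.01 and 0.864 CPM and at 7.85, 0.906 and 7.24 CPM. Kcnmb2 rested on sh2-Ift88 3: its log2 fold change of 3.34 was -0.43 in the 4 libraries that are not Snap25-poor.

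**Figure D4:**
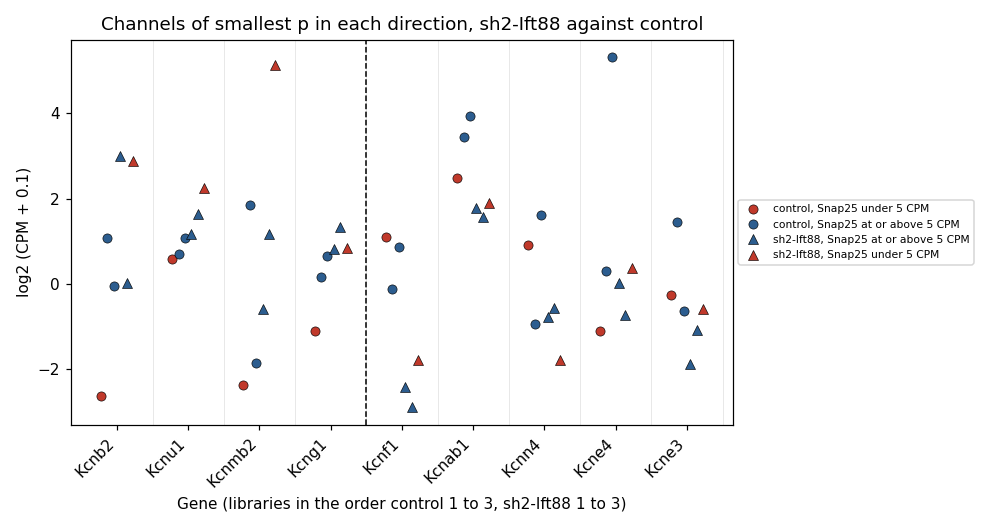
Level of 4 channels higher and 5 lower in sh2-Ift88 than in control, of small p in each direction (higher left, lower right of the dashed line), as log2 (CPM + 0.1), 1 point per library with the same symbols. Circles and triangles are separate for Kcnu1, Kcng1, Kcnf1 and Kcnab1, and single points set Kcnmb2 and Kcne4 apart.

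Other genes of membrane excitability were examined beside the channels, and 0 of the 53 tested passed between the groups in edgeR's test. Of 20 partners of potassium channels, 9 were lower in both Snap25-poor libraries. They included Dpp10 at 0.0908 and 0.686 CPM against 3.15 to 16.4 CPM and Cntnap2, which clusters axonal Kcna channels, at 0.182 and 0.187 CPM against 2.45 to 8.67 CPM. Dpp6, a relative of Dpp10 that likewise binds Kcnd channels, was present throughout, at 169.8, 62.1 and 27.3 CPM in controls and at 259, 147 and 223 CPM in sh2-Ift88. Lgi1, a secreted partner of Kcna channels, was at 7.87, 18.6 and 9.26 CPM in controls and at 28.8, 20.2 and 23.8 CPM in sh2-Ift88, with no overlap. Dpp6 and Lgi1 had the smallest p of that list, and their log2 fold changes were 1.28 and 1.03 with standard errors of 0.63 and 0.39.

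Other ion channels and pumps also held genes that were low in the Snap25-poor libraries and genes that were kept, and the lists were not tested against each other. The share of all tested genes lower in both is 12%, and that of kept genes 69.8%. Of 14 sodium channel genes, 7 were lower in both and 1 was kept; among the lower was Scn1a at 0.0303 and 0.374 CPM against 5.603 to 41.5 CPM. Scn4a and Scn4b, the 2 sodium channel genes of smallest p, were at 1.82, 1.40 and 0.469 CPM against 1.44, 4.76 and 1.81 CPM and at 0.0605, 2.47 and 6.05 CPM against 1.98, 0.738 and 0.250 CPM, controls first. Of 10 calcium channel pores, 5 were lower in both, 1 of them by at least 4-fold between the closest libraries, and 3 were kept, among them the T-type pore Cacna1g at 105 to 322 CPM. Cacna1s and Cacna1h had the smallest p in that list, at 0.618 ± 0.417 and 4.50 ± 3.10 CPM in controls and at 2.49 ± 3.03 and 8.95 ± 3.997 CPM in sh2-Ift88 (SD, n = 3 each). For the hyperpolarisation-opened channels the count was 3 of 4. Hcn3 and Hcn4 were at 2.05 and 1.02 CPM on average in controls and at 0.9896 and 1.57 CPM in sh2-Ift88.

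Among the potassium pumps and cotransporters 5 of 13 were lower in both Snap25-poor libraries, 2 of them by at least 4-fold between the closest libraries, and 6 were kept. Slc12a4, a widely expressed potassium-chloride cotransporter, was at 57.5, 43.1 and 33.7 CPM in controls and at 69.7, 60.8 and 42.4 CPM in sh2-Ift88, with overlapping groups.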

How the data were processed

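RNA-seq of mouse brain tumours gave 6 libraries, 3 control and 3 sh2-Ift88, grouped by their descriptions; replicate numbers follow accession order and pair nothing. Per the labels' protocols, libraries were made from total RNA with a stranded kit. The submitters' processing notes name BWA and mm9; for counter, annotation, strand setting and versions, the sources used here state nothing. The files deposited hold raw read counts for each gene, without normalization. Closing tallies, 23.2% to 46.4% of reads, were kept out of totals and tests.

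The comparison of groups used edgeR 4.0.16 under R 4.3.3 (filterByExpr, TMM, robust quasi-likelihood, two-sided, Benjamini-Hochberg over 16768 genes), which was tested on simulated data. The simulation gave every gene the same dispersion and held no differences in cell types between libraries. It therefore does not tell what the test could detect in these data. CPM uses TMM-scaled totals. Floors for 0 counts take 3 counts and, like all depth limits, cover counting error only. Exon lengths are unions from GENCODE vM21 (GRCm38), used for levels per kb and matched by symbol for all 64 genes. RefSeq promoter windows were cut to the 250 bases before the start. A gene's first listed window gives its GC content and CpG ratio.

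Members, lists and tests were chosen with earlier results of these data known. Named genes were the 5 of smallest p per direction with at least 1 CPM in the higher group. Also named were the 12 farthest below in Snap25-poor libraries and the 8 kept of highest CPM. To these came the 4 of most positive mean log2 difference, Snap25-poor minus other libraries, with a mean of at least 1 CPM. From each role 2 were taken, and from each other list the 2 of smallest p. Some genes under this rule are not reported here. Further names were chosen after their values were seen. Alternatives were DESeq2 1.42.0 and its size factors, limma-voom (limma 3.58.1), library totals, other filters and minimums, robust=FALSE, and leaving libraries out. Added after seeing the data were a term for libraries with over 100 detected olfactory receptor genes, and counts of low and kept channels without single libraries and within the 3 libraries below that number.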

Additional observations from a re-analysis of the deposited data

How the results depend on the processing

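No paired analysis was possible because replicate numbers follow accession order. DESeq2 called 44 genes higher and 12 lower, among them 0 channels higher and 1 lower; edgeR without a filter called 5 and 1 genes and 0 channels. Every other fit, among them those without each library, called 0 genes. With single libraries left out, the median log2 fold change of the channels ran from -0.88 to 0.19. In limma-voom on all 6 libraries it was -0.15, where the median of all genes was 0.02. With library totals alone it was -0.83, where the median of all genes was -0.33. Of single genes, Ift88 reversed to 0.13 without control 2 (-0.16 at the lowest with a library left out), Kcne4 to 0.19 without control 3 (-4.58 at the lowest with a library left out) and Kcnmb2 to -0.43 in the 4 libraries that are not Snap25-poor. The count of channels lower in both Snap25-poor libraries was 17 of 29 at a minimum of 600 counts. With libraries left out in turn it ran from 32 to 42, where 13.6% to 22.3% of all tested genes were lower. In the 3 libraries with few olfactory receptor reads it was 45 (32.8% of all tested genes). Under this rule, leaving libraries out can only keep or raise the count, so these values are no check on the 32. Kept channels ran from 9 to 14 with libraries left out and numbered 6 when the allowed log2 difference was 0.5. With library totals alone they numbered 10, and Kcnab2 was no longer kept. The log2 differences of Kcna6 and Kcnn1 then moved from 0.16 and -0.02 to -0.33 and -0.50. Depth limits the lowest channels most in sh2-Ift88 3, where 0 counts allow up to 0.187 CPM.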

Other observations

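The 27 channel genes with fewer than 60 counts in total stayed below 1 CPM in every library, and Kcnmb3 had 0 counts in all 6. The highest of them was Kcnv2, a silent subunit known from photoreceptors, with 4, 1 and 1 counts in the controls and 2, 22 and 16 in sh2-Ift88. Kcnk16, known from the pancreas, had 13 of its 15 counts in control 1.

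Adam22, a membrane partner of Lgi1 and Kcna channels, was at 692, 593 and 347 CPM in controls and at 204, 777 and 3003 CPM in sh2-Ift88. Its highest library, sh2-Ift88 3, is Snap25-poor and is also the library with the highest Kcnmb2. Lrrc55, an accessory subunit of BK channels, was at 40.9, 1.69 and 0.790 CPM in controls and at 2.23, 8.76 and 14.6 CPM in sh2-Ift88, highest in the Snap25-poor library of each group, as Kcnmb4 was. Adam22 and Lrrc55 were named after their values were seen.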
